A study of Homo sapiens with 3 samples.

Results

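Cardiomyocytes (CMs) are the contractile cells of the heart. They shorten when a calcium wave releases the thin filament of the sarcomere, built of actin, tropomyosin and the troponins, to slide along the thick filament of myosin, while titin runs from the edge of each repeat to its centre. In the embryo CMs arise from cardiac mesoderm under factors such as NKX2-5, GATA4, MEF2C and myocardin, and the first ones beat before the chambers have formed. Here CMs are described on the eighth day of differentiation (D8), 1 day after the cells were aggregated into chambered cardiac organoids (CCOs).

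H7, an established human embryonic stem cell line, was turned into CCOs by timed activation and inhibition of WNT signalling (CHIR99021, then IWP-2), followed by aggregation in Matrigel on D7, culture in cardio-sphere growth medium, which holds growth factors including Wnt-3A and EDN1, until D14, and then culture in RPMI-1640 with B27 until D21. No compound or mutation was tested, so all 3 groups share the line and the protocol and differ in age and, at D21, also in medium and in culture vessel, since CCOs were moved from well plates to a stirred spinner flask at D14. Dissociated CCOs of D8, D14 and D21 were profiled as 1 droplet library a day, where 1 tag on every captured transcript names its cell and another, the UMI, names the molecule. With 1 line and 1 library a day, the effect of age cannot be told apart from that of the library, replicate error is unknown, and no test was made. All intervals below are exact 95% intervals that cover counting error only, and the UMIs of 1 cell are not independent samples of a condition.

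The D8 library held 3563 barcodes, of which 2657 were kept as cells with more than 2000 and fewer than 7500 detected genes and under 10% of UMIs from the mitochondrial genome. D8 CMs were taken as kept cells in which TNNT2 (cardiac troponin T), MYH6 (alpha myosin heavy chain), MYL7 (atrial regulatory light chain) and TTN (titin) together made up at least 0.5% of the UMIs and in which 6 genes of dividing cells (MKI67, TOP2A, CENPF, TPX2, NUSAP1 and UBE2C) had fewer than 8 UMIs per 10000. This left 319 of 2657 cells, a share of 12% (10.8 to 13.3). The remaining 2338 kept D8 cells, called other D8 cells here, included 13 cells that reached the cardiac limit and exceeded the cycling limit. D8 CMs had a median of 14340 UMIs (4665 to 38715) and 3807 genes a cell, against 15433.5 UMIs and 3851 genes in other D8 cells, so depth was alike, while the mitochondrial share was 3.25% at the median against 1.98%. Over all days the table held 17327 barcodes and 8188 kept cells, and 136 barcode sequences occurred in 2 libraries. Of the D8 CMs, 6 shared a barcode with another library, 1 of them with a kept cell.

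The limit of 0.5% cut a continuous range. The D8 CM nearest to it had 0.500034% and the nearest cell under it 0.496%, 48 D8 CMs lay under 0.6%, and 64 cells lay from 0.4% to 0.5%. Within the D8 CMs the share had a median of 0.919%, reached 6.33% in the highest cell, and was under 1% in 180 cells, from 1% to 2% in 95, from 2% to 4% in 40 and 4% or more in 4. On the cycling limit, the nearest cell inside had 7.56 UMIs per 10000 and the nearest outside 9.57. D8 CMs as taken here are therefore a range of a score, which the histogram of the share shows. The cells were not clustered here.

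**Figure D1:**
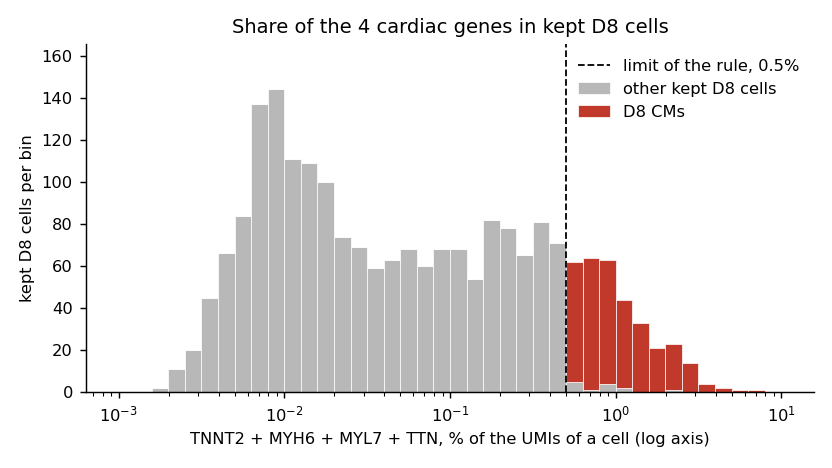
Kept D8 cells by the percent of their UMIs that came from the 4 cardiac genes (x axis, log scale, stacked bars of 0.1 log10 units, y axis, cells per bin). Red bars are the 319 D8 CMs, grey bars the 2338 other D8 cells (536 of them with no UMI of the 4 genes are not drawn), and the dashed line is the limit of 0.5%, at which the counts show no gap.

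The 4 genes did not contribute alike. At least 1 UMI of each was found in 307 of the 319 cells (96.2%). TNNT2 was read in every D8 CM, TTN in all but 1, MYH6 in all but 5 and MYL7 in all but 6. Across the cells TNNT2 had a median of 20.5 UMIs per 10000 (quartiles 12.5 and 35, highest 122), MYH6 a median of 12.2 UMIs per 10000 (quartiles 6.15 and 21.6, highest 105), MYL7 a median of 21.2 UMIs per 10000 (quartiles 7.77 and 48.2, highest 481) and TTN a median of 36.4 UMIs per 10000 (quartiles 25.7 and 47.9, highest 95). MYL7 was thus spread the widest of the 4 relative to its median. MYL7 alone carried 73 cells over the limit and TTN alone 68, while 137 cells would have been under it without TTN. These values chose the cells and are given as a description.

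Genes outside the rule were then read to see whether the cells carry the label. The contractile genes were higher. Of 13 listed thick and thin filament genes, 10 reached 10 CPM (UMIs per 1000000 UMIs) in D8 CMs or other D8 cells, and 8 of them were 2-fold or more higher in D8 CMs, none lower, on a log2 scale with 10 CPM added to both levels, where 3.34% of all 8737 genes compared were as much higher and 2.79% as much lower. The median log2 ratio of the list was 3.23, beside 0.03 over all genes compared. The cells were chosen on genes of the same cells, so these ratios describe the choice and are no independent evidence for it.

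Among thin filament genes, the cardiac actin ACTC1 was at 1859.7 CPM (1822 to 1898) in D8 CMs and 124 CPM (120.3 to 127) in other D8 cells, a 15-fold difference. It was found in 263 of 319 cells with a median of 6.48 UMIs per 10000 (quartiles 0.845 and 20.6, highest 315), so its level differed widely between the cells. TNNC1, the calcium-binding troponin, was at 394 against 19.1 CPM, and TNNI1, the slow skeletal troponin I that the fetal heart uses, at 4164 against 440.4 CPM. TNNI1 was read in all 319 cells. TNNI3, the troponin I of the adult heart, differed little, with 45.7 CPM (40 to 52) in D8 CMs and 36.9 CPM (35 to 38.8) in other D8 cells, and the slow skeletal TNNT1, which did not reach 2-fold, was at 62.6 against 118 CPM. TPM1, alpha tropomyosin, was at 7396 against 1546 CPM.

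Among thick filament genes, the essential light chains MYL4, of atrial and embryonic muscle, and MYL3, of the ventricle, were at 1916 and 208 CPM in D8 CMs against 146 and 6.79 CPM in other D8 cells. MYL4 was read in 315 of 319 D8 CMs and MYL3 in 164. MYBPC3, myosin-binding protein C, was at 33.4 against 0.912 CPM. The genes of the later ventricular sarcomere were near 0. MYH7, the beta myosin heavy chain, was at 4.90 CPM (3.17 to 7.24) and was read in 19 cells, all of which also had MYH6, and MYL2, the ventricular regulatory light chain, had 2 UMIs in all 319 cells together, both in 1 cell.

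ACTA1, the skeletal alpha actin that the fetal heart also makes, stood at 685 CPM (662 to 708) in D8 CMs and 63.5 CPM (61.1 to 66) in other D8 cells. It was read in 138 of the 319 cells, and 1 cell held 12% of its UMIs. ACTA2, the smooth muscle alpha actin that early CMs share, was read in 267 cells at 1147 CPM against 158 CPM. Muscle actin and myosin genes are classic targets of serum response factor, which binds the CArG box. Regions before the start sites of 4 sarcomere genes are shown because they hold this box and the genes were higher in D8 CMs. MYL7 is a gene of the rule, so its higher level follows from the choice of cells. The 250 bases upstream of RefSeq start sites (GRCh38.p14) were searched for the CArG box and the MEF2 motif on both strands. Of the 37 genes of the rule and the sarcomere lists, 27 had a window, 5 of these held a CArG box (ACTC1, ACTA1, MYL7, LDB3 and MYOM1) and 7 a MEF2 motif, and none of the genes held both. Each line gives the 250 bases on the strand of the gene, with the CArG box in capitals.
ACTC1, minus strand of chr15:34795550-34795799: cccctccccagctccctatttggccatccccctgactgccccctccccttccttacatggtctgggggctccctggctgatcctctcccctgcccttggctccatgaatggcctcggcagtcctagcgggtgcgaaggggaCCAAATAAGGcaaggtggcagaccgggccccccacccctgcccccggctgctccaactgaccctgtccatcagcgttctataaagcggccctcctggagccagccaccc
ACTA1, minus strand of chr1:229434095-229434344: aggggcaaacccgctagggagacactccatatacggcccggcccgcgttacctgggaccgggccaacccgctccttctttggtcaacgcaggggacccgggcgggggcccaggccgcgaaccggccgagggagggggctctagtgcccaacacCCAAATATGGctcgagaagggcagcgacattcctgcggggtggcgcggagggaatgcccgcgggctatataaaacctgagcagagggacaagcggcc
MYL7, minus strand of chr7:44141333-44141582: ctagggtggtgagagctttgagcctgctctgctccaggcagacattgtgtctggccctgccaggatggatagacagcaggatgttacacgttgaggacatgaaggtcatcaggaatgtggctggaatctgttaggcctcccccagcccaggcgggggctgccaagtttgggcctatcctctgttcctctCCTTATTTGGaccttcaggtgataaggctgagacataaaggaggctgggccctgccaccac
LDB3, plus strand of chr10:86668261-86668510: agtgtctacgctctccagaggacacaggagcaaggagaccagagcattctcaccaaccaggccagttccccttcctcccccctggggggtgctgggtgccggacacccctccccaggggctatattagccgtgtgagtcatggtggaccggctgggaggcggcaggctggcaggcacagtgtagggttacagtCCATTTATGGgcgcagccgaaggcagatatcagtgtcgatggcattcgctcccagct

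The box began at position -109 from the start site in ACTC1, -97 in ACTA1, -61 in MYL7 and -57 in LDB3. A CArG box was found before 13 of the 210 genes with a window that were 2-fold or more higher in D8 CMs (6.19%), before 2 of 179 that were lower (1.12%), and before 112 of 6700 genes compared (1.67%). For the MEF2 motif the shares were 23 of 210 (11.0%), 1 of 179 (0.559%) and 141 of 6700 (2.10%). Over all 27305 genes with a window they were 1.44% for the CArG box and 3.44% for the MEF2 motif. MYL7, with a CArG box, and TTN, with a MEF2 motif, are genes of the rule and are counted among the higher genes. A match describes the letters of the window and no binding was measured.

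Genes that anchor and assemble the sarcomere were also higher. Of 20 listed genes of the Z-disc, the M-band and assembly, 16 reached 10 CPM and 14 were 2-fold or more higher in D8 CMs, with a median log2 ratio of 2.10. CSRP3 (muscle LIM protein) was at 222 against 13.5 CPM, SMPX, a small stretch-responsive protein, at 242 against 15.3 CPM, and ACTN2, the alpha-actinin of the Z-disc, at 78.9 against 6.31 CPM. LDB3, which binds alpha-actinin, was at 105 against 11.1 CPM and NEBL (nebulette) at 714 against 103 CPM. The myosin chaperone UNC45B and the methyltransferase SMYD1, both needed to build thick filaments, were at 109 and 127 CPM against 11.4 and 14 CPM. TCAP and DES, with log2 ratios of 0.92 and 0.61, did not reach 2-fold, and MYOZ2, MYPN, XIRP2 and LMOD2 stayed under 10 CPM in both, with 1.18 CPM for MYOZ2 in D8 CMs.

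Calcium handling genes formed the next group. Of 13 listed genes 10 reached 10 CPM and 8 were 2-fold or more higher in D8 CMs, with a median log2 ratio of 1.86. PLN (phospholamban), which restrains the calcium pump of the sarcoplasmic reticulum, was at 557 CPM (537 to 578) against 38.3 CPM (36.4 to 40.2), 14.6-fold higher, and its atrial relative SLN (sarcolipin) at 214 against 20.6 CPM. PLN was read in 259 cells and SLN in 134, so SLN was read in fewer of the cells. TRDN (triadin) was at 119 against 5.52 CPM, the release channel RYR2 at 48.7 against 6.24 CPM, the exchanger SLC8A1 at 65.5 against 10.6 CPM and the pump ATP2A2 itself at 115 against 40.1 CPM. CASQ2, the calcium buffer of the reticulum, had 3 UMIs in all D8 CMs.

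Ion channel genes were low at this depth. Of 15 listed genes only 3 reached 10 CPM, which were KCNH2 (42.8 against 16.4 CPM), KCNA5 (14.7 against 2.06 CPM) and CACNA1G (19.6 against 7.03 CPM), and the first 2 were 2-fold or more higher. The pacemaker channel HCN4 stayed under 10 CPM in both and was not counted. It was at 8.83 CPM (6.44 to 11.8) in D8 CMs and 1.87 CPM (1.48 to 2.34) in other D8 cells. KCNJ3 had no UMI in D8 CMs, where 3 counts equal 0.589 CPM.

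**Figure D2:**
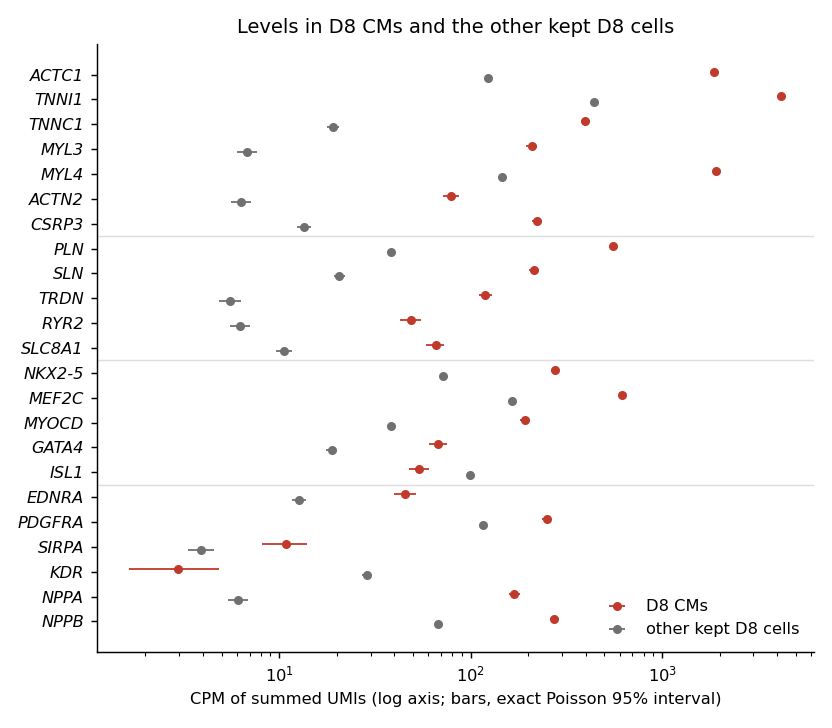
Level of named genes outside the rule (y axis) in D8 CMs (red) and in other D8 cells (grey), as CPM of summed UMIs on a log x axis. Bars are exact Poisson 95% intervals of the counts. Wide gaps are seen for sarcomere and calcium genes and NPPA, as for MYL3 at 208 against 6.79 CPM, and ISL1 and KDR are the genes with the lower level in D8 CMs.

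Transcription factors of the heart had smaller ratios than the filament genes. Of 16 listed core factors, 11 reached 10 CPM and 5 were 2-fold or more higher in D8 CMs, with a median log2 ratio of 0.82. MYOCD (myocardin), the co-activator of serum response factor, was at 193 CPM (181 to 205) against 38.3 CPM (36.5 to 40.3). MEF2C was at 618 against 164 CPM and was read in 312 of 319 cells, with a median of 5.83 UMIs per 10000 (quartiles 3.62 and 8.42, highest 23.5). NKX2-5 was at 276 CPM (262 to 291) against 72.1 CPM (69.5 to 74.7) and was read in 290 cells. GATA4 was at 67.5 against 18.8 CPM and MEF2A at 104 against 39.7 CPM. HAND1, of the first heart field and the left ventricle, did not reach 2-fold, at 19.6 against 44 CPM, while HAND2 was at 76.3 against 42.5 CPM. TBX5 had 5.10 CPM, and SRF, which encodes serum response factor, 22.8 against 17 CPM.

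Some of this signal can be UMIs of free RNA in the droplets. As a yardstick, 485 other D8 cells with at least 3 UMIs per 10000 of the epithelial genes EPCAM, CDH1, CLDN6 and FOXA2 were read (median depth 20951 UMIs), and all cells were thinned to 4000 UMIs. A TNNT2 UMI was left in 97.8% (95.5 to 99.1) of D8 CMs, 20.1% of other D8 cells and 14.8% (11.8 to 18.3) of these epithelial cells (before thinning 100%, 41.7% and 41.9%). For NKX2-5 the shares were 61.8% (56.2 to 67.1), 18.9% and 13%, for ACTC1 69.9% (64.5 to 74.9), 17.1% and 12.6%, and for PLN 64.6% (59.1 to 69.8), 8.85% and 4.12%. TNNT2 is a gene of the rule, so its shares follow from the choice of cells. The shares of NKX2-5, ACTC1 and PLN, which the rule did not use, were also higher in D8 CMs than in the epithelial cells. But D8 CMs were chosen for high cardiac genes, and the epithelial cells were taken from the rest. Higher shares of genes that go along with those of the rule can therefore follow from the choice of cells. The part of free RNA in these shares was not tested. The share of ANKRD1 was not higher, at 15% (11.3 to 19.5) of D8 CMs and 17.7% (14.4 to 21.4) of the epithelial cells. Its summed level was nevertheless 212 against 75.4 CPM in other D8 cells, and 1 cell held 19% of its UMIs in D8 CMs.

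Genes of cardiac progenitors went in both directions. Of 18 listed progenitor and second heart field genes 11 reached 10 CPM, of which 3 were 2-fold or more higher (EDNRA, PDGFRA and SMARCD3) and 2 lower, KDR among them. PDGFRA, a growth factor receptor of cardiac mesoderm, was at 250.2 CPM (237 to 264) against 116 CPM (112 to 119) and was read in 287 of 319 cells, 264 of which also had NKX2-5. ISL1, the factor that marks second heart field progenitors, did not reach 2-fold, at 53.8 CPM (47.6 to 60.5) against 99.3 CPM (96.3 to 102). A UMI of ISL1 was found in 137 D8 CMs, and 124 of these also had NKX2-5, while 166 had NKX2-5 alone and 16 neither. After thinning the ISL1 share was 14.7% (11 to 19.1) in D8 CMs, 30.6% in other D8 cells and 24.5% in the epithelial cells, so the D8 CM share lies below that yardstick, and whether the epithelial cells themselves make ISL1 was not tested. FGF10 was at 94.2 against 54.1 CPM and KDR, the VEGF receptor of cardiac and endothelial precursors, at 2.94 against 28.6 CPM.

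Surface proteins used to sort cardiac cells were read from a list of 8, all at 10 CPM, of which EDNRA and PDGFRA were 2-fold or more higher and KDR lower. EDNRA, the endothelin receptor A, was at 45.5 CPM (39.8 to 51.8) against 12.7 CPM (11.6 to 13.8), and SIRPA, a standard CM surface marker, at only 10.8 CPM (8.13 to 14) against 3.91 CPM (3.33 to 4.56). At least 1 UMI of EDNRA was found in 132 of 319 D8 CMs and of SIRPA in 49. Both were found in 27 cells, EDNRA alone in 105, SIRPA alone in 22 and neither in 165. VCAM1, a later CM marker, was at 10.4 against 1.10 CPM, while ALCAM (28.3 against 40.2 CPM) and THY1 (38.5 against 38.6 CPM) were not higher. NCAM1 was at 84.8 against 42 CPM. At such levels a cell without a UMI cannot be called negative.

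Chamber and pacemaker genes were few. Of 18 listed atrial, ventricular and nodal genes 10 reached 10 CPM, with 3 higher (NPPA, NPPB and CORIN) and 2 lower (HEY1 and TBX3). NPPA, the atrial natriuretic peptide, was at 169 CPM (158 to 181) against 6.10 CPM (5.37 to 6.89), and NPPB, the B-type peptide, at 273 against 67.3 CPM. Each peptide was read in 115 of 319 cells, with both in 66, and 1 cell held 13.5% of the NPPB UMIs. CORIN, the protease that activates the peptide, was at 21.8 against 4.58 CPM. The ventricular factors IRX4 and HEY2 were at 1.18 and 6.47 CPM, the atrial factors NR2F1 and NR2F2 at 0.785 and 2.16 CPM, and the nodal SHOX2 and TBX18 had 1 and 0 UMIs. Of the small heat shock proteins, HSPB1, HSPB7 and CRYAB were the 3 at 10 CPM or more, all 2-fold or more higher, with HSPB7 at 131 against 14.9 CPM.

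Energy genes differed moderately. Of the 9 of 10 listed high-energy phosphate and oxygen genes at 10 CPM, 5 were 2-fold or more higher, among them SLC25A4, the muscle ADP/ATP carrier, at 452 against 80.8 CPM, COX6A2, a muscle subunit of cytochrome oxidase, at 37.7 against 1.70 CPM, and MB (myoglobin) at 61.6 against 18.4 CPM. Of 19 glycolysis genes, 2 were past 2-fold, PFKP (236 against 68.4 CPM) and ALDOC (163 against 68.5 CPM), but 18 of 19 had a ratio above 0 and the median was 0.62. The exception was the glucose transporter SLC2A1 (144 against 194 CPM). Of 12 fatty acid oxidation genes at 10 CPM, 2 were past 2-fold, FABP3 (57.5 against 10.8 CPM) and PPARGC1A (25.1 against 3.94 CPM), and the transporter CD36 had no UMI. None of 12 mitochondrial transcripts at 10 CPM was past 2-fold, 11 had a ratio above 0, and their median was 0.62, beside the higher mitochondrial share given above, whose part in these values was not tested.

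Signalling genes went in both directions. Of 12 BMP pathway genes at 10 CPM, BMP2 (114 against 28.7 CPM) and BMP7 (95 against 34.5 CPM) were higher and BMP4 (16.7 against 54.3 CPM), ID1 and ID3 lower. ID1, an inhibitor of DNA binding that BMP signals induce, was at 224 CPM (212 to 238) against 1170.2 CPM (1159.9 to 1181), and ID3 at 236 against 802 CPM. In the WNT list of 7 genes at 10 CPM, WNT5A was higher (62.6 against 17.3 CPM) and the inhibitors SFRP2 (0.589 against 45 CPM) and DKK1 (13.1 against 43.7 CPM) lower. Of 10 growth factor genes NRG1, a ligand for CMs made by endocardium, was the only one past 2-fold, at 7.46 against 32.5 CPM. Of 17 matrix genes COL1A2 (319 against 105 CPM) and FBN2 (121 against 50.2 CPM) were higher, and of 14 junction genes CTNNA3, the alpha-catenin of the intercalated disc, was higher (23.9 against 2.86 CPM) and GJA1 (connexin 43) lower (34.1 against 96.3 CPM). Over all 8737 genes compared 3.34% were 2-fold or more higher and 2.79% lower, so 1 or 2 genes past 2-fold are not read as a change of a list.

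Markers of other cell types were read for the whole of each list. Of 8 endoderm and epithelial markers all reached 10 CPM and 5 were lower in D8 CMs, among them EPCAM (34.1 against 167 CPM) and TTR (3.53 against 109.8 CPM), whereas KRT19, a keratin read in many D8 cells, was at 1511 against 1130.4 CPM. Summed over that list, D8 CMs had 1655 CPM and other D8 cells 1688 CPM. Per cell, D8 CMs ranged from 1.09 to 108 UMIs per 10000 (median 12.7) and other D8 cells from 0 to 317 (median 8.89). KRT19 made up 7699 of the 8433 UMIs in D8 CMs, and 32 of the 319 cells (10.0%) reached the epithelial limit. Of 8 endothelial markers 4 reached 10 CPM, with PLVAP and KDR lower and ESAM at 0, of 8 pluripotency and early mesoderm markers 4, with POU5F1 (2.16 against 33.1 CPM), SOX2 and LIN28A lower, and of 8 surface ectoderm and neural markers 3, all lower, with TFAP2A, PAX6 and DLX5 at 0. Summed over each list, D8 CMs and other D8 cells had 90.6 and 144 CPM of endothelial, 93.8 and 270.3 of pluripotency, 9.61 and 93.4 of surface ectoderm, 3.92 and 11.6 of epicardial and 426 and 299 CPM of fibroblast markers. Of 7 epicardial markers none reached 10 CPM, and WT1, TBX18, SEMA3D and UPK1B were at 0. Of 8 fibroblast markers 4 reached 10 CPM, PDGFRB was lower and DCN at 0. In the endothelial and in the fibroblast list, 1 of the 4 at 10 CPM had a ratio above 0. EGFL7, read in 206 D8 CMs, made up 433 of their 462 endothelial UMIs. COL1A1, read in 283, made up 1886 of their 2172 fibroblast UMIs. Of 6 skeletal muscle factors none reached 10 CPM. MYOD1, MYF5, MYF6, MYOG and PAX7 had no UMI in D8 CMs, where 3 counts equal 0.589 CPM. The other, PAX3, had 10 UMIs in 9 D8 CMs. The list summed to 1.96 CPM in D8 CMs and 2.09 CPM in other D8 cells, so it was not lower in D8 CMs beyond counting error. Of 7 smooth muscle markers 4 reached 10 CPM, ACTA2 and CNN1 were higher (the list summed to 1824 against 502 CPM), and MYH11, the defining one, was at 1.57 CPM.

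Genes of dividing cells that the rule did not name followed those it did. All 15 other listed mitosis genes were 2-fold or more lower in D8 CMs, such as CDK1 at 6.87 against 68.7 CPM and CCNB2 at 11.6 against 79.4 CPM. The 384 kept D8 cells at or over the cycling limit were all among other D8 cells. Lower levels of genes of dividing cells in D8 CMs thus follow from the choice of cells. Of 14 DNA replication genes, 6 were 2-fold lower and none higher, with PCNA at 21.8 against 59.2 CPM. Among CDK inhibitors and cyclins only CCND1 (cyclin D1) was past 2-fold, at 8.83 CPM (6.44 to 11.8) against 67.3 CPM (64.8 to 69.8). Of 17 immediate early and stress genes at 10 CPM, 16 had a ratio below 0 and 3, IER2, KLF6 and CYR61, were 2-fold lower, as for KLF6 with 36.9 against 118 CPM.

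The 13 D8 cells over both limits were compared with the D8 CMs, 2.3% of 9176 genes being 2-fold or more higher in the D8 CMs and 3.79% lower. All 15 mitosis genes outside the rule were lower in the D8 CMs, as for BIRC5 with 15.5 against 383 CPM and CDK1 with 6.87 against 173 CPM. The cycling limit set the 13 cells apart, so this difference follows from the choice of cells. None of 11 filament genes at 10 CPM was past 2-fold in either direction, nor was any of 11 calcium genes. ACTC1 was at 1859.7 CPM (1822 to 1898) in D8 CMs and 2765 CPM (2569 to 2972) in the 13 cells, and NKX2-5 at 276 CPM (262 to 291) and 120.2 CPM (82.2 to 169.7). The 13 cells hold fewer UMIs than the D8 CMs, which widens their intervals, and these leave out the spread between the 13 cells.

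Across all genes at 100 CPM or more in either group, outside the 10 genes of the rule, the 10 with the largest ratio in favour of D8 CMs were CTD-2545M3.8, ACTC1, TNNC1, MYL3, MYL4, PLN, NPPA, LAD1, SMPX and CSRP3. CTD-2545M3.8, which has no entry in the annotation used here, was at 695 CPM (672 to 718) against 40.1 CPM (38.2 to 42) and was read in 291 of 319 cells. LAD1 (ladinin), a gene of epithelial basement membranes, was at 171 against 8.02 CPM, but it overlaps TNNT2 on the same strand in the GENCODE annotation, so reads of the 2 genes may not be told apart and its value is uncertain. TTN and PDGFRA also overlap another coding gene on their own strand. MYL3, NPPA and PLN each overlap another coding gene on the opposite strand, and whether counting used the strand is not given in the sources used here. The 10 at the other end were PRSS1, DLK1, TTR, MIR302B, ID1, MARCKS, MT1X, TMSB15A, KIAA0101 and MT1E. DLK1, a Notch-like membrane protein of fetal tissues, was at 64.5 against 668 CPM, MARCKS, an actin-regulating kinase substrate, at 47.3 against 258 CPM, and MIR302B, a row of the miR-302 locus of pluripotent cells, at 4.32 against 108 CPM. The UMIs that remained in D8 CMs were uneven, with 1 cell holding 47.8% of those of PRSS1, 30.4% of DLK1, 44% of the metallothionein MT1X and 54.7% of MT1E.

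The D8 CMs were also split by the score of the rule itself, the share of the 4 genes, so what follows describes genes that go along with that share and is no independent evidence that the cells differ. The 44 cells with 2% or more of the 4 genes were compared with the 180 under 1%, at median depths of 14002 and 14148.5 UMIs. Of 8574 genes, 0.875% were 2-fold or more higher and 1.01% lower in the first. The leading gene was ACTA1, at 2375 against 354 CPM, although 28 of the 44 and 64 of the 180 cells had any UMI of it, and it was at 259 CPM in the 4 cells of 4% and over against 2545 CPM in the 40 cells of 2% to 4%. TNNC1 (1163 against 189 CPM), ACTC1 (5612 against 1062 CPM), MYL3 (616 against 115 CPM), CSRP3 (459 against 131 CPM) and ACTN2 (189.6 against 54.4 CPM) went the same way, as did NPPA (327 against 88.6 CPM). Of 11 filament genes at 10 CPM 7 were 2-fold higher, of 16 Z-disc genes 7 and of 10 calcium genes 5, and none was lower. CCDC80, a secreted matrix protein, was at 163 against 30.4 CPM, with 29.1% of the first group's UMIs in 1 cell. LAD1 and CTD-2545M3.8 were the other 2 among the 10.

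The cardiac factors differed little over this range. None of 11 core factors was past 2-fold, with NKX2-5 at 277 against 260.2 CPM and MEF2C at 519 against 591 CPM. ISL1 was lower in the cells with more of the 4 genes, at 10.4 CPM (4.17 to 21.4) against 62.8 CPM (53.9 to 72.8), and so was ID1, at 81.5 CPM (61.4 to 106) against 260.2 CPM (242 to 279.7). None of the 19 glycolysis genes was past 2-fold. Of 16 immediate early and stress genes 4 were lower and none had a ratio above 0. Cytoplasmic actin ACTG1 (387 against 1086 CPM), the G-protein regulators RGS4 (35.6 against 183 CPM) and RGS5 (91.9 against 265 CPM), the peptide NMB (56.3 against 160.3 CPM) and ID1 were among the 10 genes with the lowest ratios. The other 5 were the metallothioneins MT2A, MT1X, MT1G and MT1E and CTGF, whose ratios rest on few cells. In the cells under 1%, 1 cell held 35.5% of the MT2A UMIs and 64% of the CTGF UMIs. Without the highest cell of each group MT2A stood at 13.5 against 257 CPM, and MT1E at 6.0 against 47 CPM. The median mitochondrial share was 4.32% in the 44 cells and 3.15% in the 180, and its part in these differences was not tested.

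**Figure D3:**
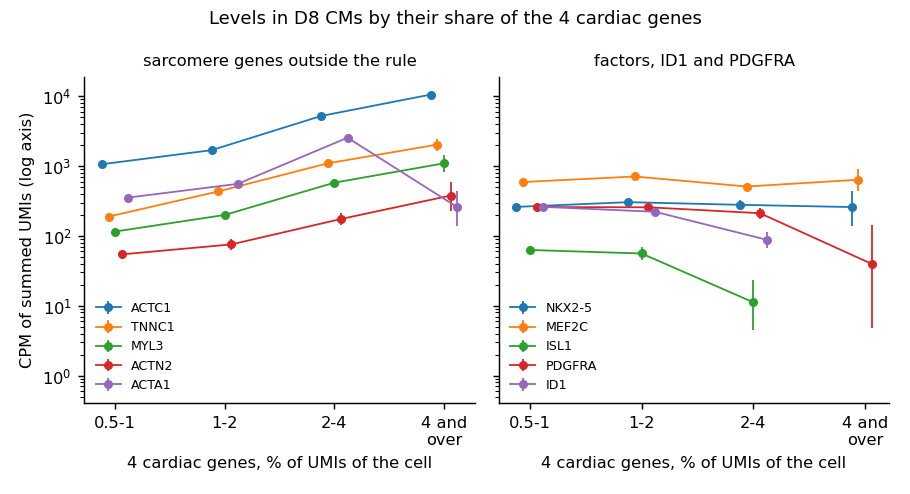
CPM of summed UMIs (log y axis, bars are exact Poisson 95% intervals) in D8 CMs split by the percent of their UMIs from the 4 cardiac genes (x axis; 180, 95, 40 and 4 cells). Left, sarcomere genes outside the rule. Right, factors, ID1 and PDGFRA. ACTC1 goes from 1062 to 5612 CPM between the cells under 1% and those of 2% and over, and ISL1 from 62.8 to 10.4. Points at 0 UMIs (ISL1 and ID1 at 4% and over) are not drawn.

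Cells chosen by the same rule on later days were set beside the D8 CMs. They numbered 1032 of 3585 kept cells at D14 (28.8%) and 633 of 1946 at D21 (32.5%), with a median share of the 4 genes of 1.66% and 4.35% and a median mitochondrial share of 5.22% and 8.34%. The D21 value lies close to the limit of 10% on kept cells. Of 9149 D21 barcodes 1946 were kept, against 3585 of 4615 at D14 and 2657 of 3563 at D8. The D21 group is thus a selected part of its library, and the effect of this on its levels was not tested. Of 9029 genes compared, 4.73% were 2-fold or more higher at D14 and 0.775% lower, and at D21 6.56% of 8950 were higher and 5.75% lower. Both comparisons share the D8 CMs, and over all genes read on both days the median shift at D21 was -0.144 on the log2 scale. As each day is 1 library, the ratios compare libraries, not days.

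The sarcomere of the D8 CMs held less of most of its genes. Of 11 filament genes at 10 CPM, 6 were 2-fold or more higher at D14 than at D8 and 1 lower, and at D21 8 of 12 were higher and 3 lower. At D8, D14 and D21 in turn, MYL3 was at 208, 2196 and 8478 CPM, ACTC1 at 1859.7, 6523 and 12695 CPM and TNNC1 at 394, 994 and 6949 CPM. The ventricular genes were late, with MYL2 at 0.392, 4.17 and 489 CPM and MYH7 at 4.90, 29.6 and 552 CPM, and the small heat shock protein HSPB3 at 1.18, 26.3 and 418 CPM. ACTA1 went the other way, at 685, 132 and 50.7 CPM. TNNI1 was at 4164, 6486 and 7035 CPM and TNNI3 at 45.7, 98.8 and 17.2 CPM. All 18 Z-disc genes at 10 CPM had a ratio above 0 on both later days.

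Calcium handling genes were mostly higher later, with 4 of 12 past 2-fold at D14, and 7 at D21, where 2 were lower. PLN was at 557, 1334 and 2654 CPM, ATP2A2 at 115, 258 and 719 CPM and SLC8A1 at 65.5, 174 and 378 CPM, whereas SLN was at 214, 155 and 5.11 CPM. Of 10 ion channel genes at 10 CPM 7 were 2-fold higher at D14, and at D21 4 of 8 were higher and 1 lower. Among those higher at D14 were HCN4 (8.83, 37 and 35.9 CPM) and KCNJ5 (9.61, 47.5 and 22.3 CPM). Among factors MEF2C was at 618, 459 and 67.8 CPM and FHL2, a LIM co-factor, at 79.1, 574 and 416 CPM. NPPB was at 273, 62.9 and 90.6 CPM and NPPA at 169, 192 and 298 CPM.

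Several genes had their highest level in the D8 CMs. The 5 with the lowest ratio at D14 were MT2A (229.9, 1.73 and 3.89 CPM), CTSV, a cysteine protease (177 and 23.2 CPM at D8 and D14), TMEM88, a WNT inhibitor of cardiac precursors (207 and 29 CPM), ACTA1 and PDGFRA (250.2, 43.9 and 14.4 CPM). For MT2A 1 cell held 33.8% of the D8 UMIs. LIN28A, an RNA-binding protein of stem cells, was at 74, 10.5 and 0.222 CPM, and KRT19 at 1511, 612 and 80.7 CPM. The 5 with the highest ratio were CITED4, a transcriptional co-activator (5.10 and 243 CPM), EEF1A2, the muscle and nerve form of elongation factor 1 alpha (10.2 and 307 CPM), VWC2, a secreted BMP antagonist (1.96 and 124 CPM), C11orf96 (13.5 and 245 CPM) and MYL3.

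Glycolysis genes were level from D8 to D14 and lower at D21. None of 19 was past 2-fold at D14 (median log2 ratio 0.02), and 15 were 2-fold or more lower at D21 (median -1.65, beside -0.07 over all genes). ENO1 was at 3774, 4312 and 396 CPM, LDHA at 2355, 2327 and 390.5 CPM and HK2 at 85.5, 99.5 and 5.33 CPM, while PFKM, the muscle phosphofructokinase, was at 68.7, 69.5 and 107 CPM. Of the fatty acid oxidation genes at 10 CPM, 1 of 12 was 2-fold or more higher at D14 and 2 of 13 at D21, none lower, with 7 of 13 above 0 and a median log2 ratio of 0.0065 at D21. FABP3, a fatty acid carrier and 1 of those higher, was at 57.5, 263 and 1014 CPM, and myoglobin (MB), of another list, at 61.6, 165 and 514 CPM. Of 13 mitochondrial transcripts 2 were 2-fold higher at D14 and 5 at D21, beside the mitochondrial shares above, whose part in these levels was not tested. Against the other kept cells of their own day, 6.69% of 8944 genes were 2-fold or more higher in D21 CMs and 7.47% lower, with 10 of 11 filament genes and 17 of 18 Z-disc genes higher. Of 18 glycolysis genes at 10 CPM in that comparison, 4 were 2-fold or more higher in D21 CMs and none lower (median log2 ratio 0.38). Whether the lower glycolysis levels at D21 are particular to CMs was not tested. APOA2, a liver and endoderm gene, was at 1.77, 27 and 1060.0 CPM and COL3A1, a fibroblast collagen, at 12.8, 191 and 368 CPM, and the part of free RNA in these values was not tested.

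**Figure D4:**
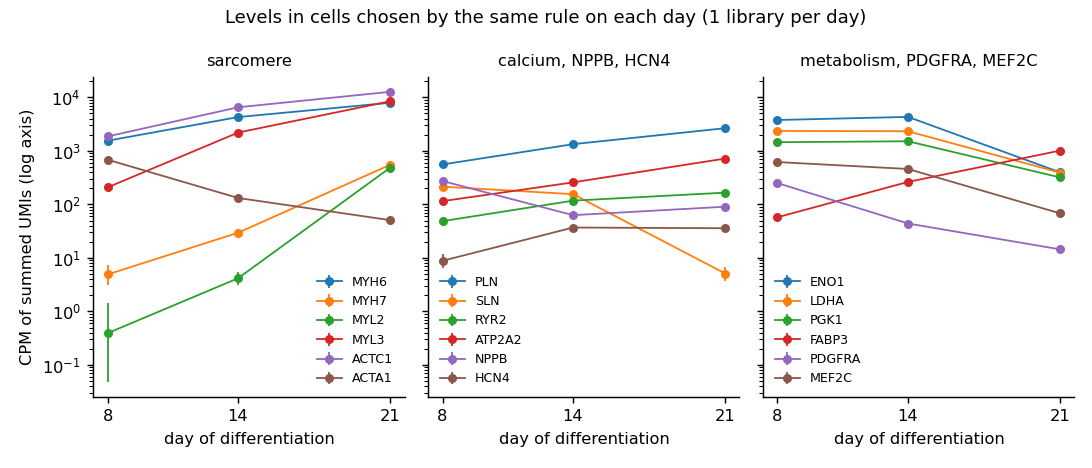
CPM of summed UMIs (log y axis, bars are exact Poisson 95% intervals, mostly smaller than the points) in cells chosen by the same rule at D8 (319 cells), D14 (1032) and D21 (633), by day of differentiation (x axis, 1 library a day). Left, sarcomere genes. Middle, calcium genes, NPPB and HCN4. Right, metabolic genes, PDGFRA and MEF2C. ACTA1 is at 685 CPM at D8 and 50.7 at D21, and MYL3 at 208 and 8478.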

How the data were processed

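The deposited table holds unnormalized UMI counts (32738 genes by 17327 barcodes), as the authors' pipeline left them, and every value was found to be a whole number. The submitters' processing notes name Cell Ranger, Seurat 3.2.1 and the build hg19, with no role or parameters. The day of a barcode was read from the end of its column name, and the sample from the labels.

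The members and gene lists were chosen with earlier results of these data known. UMIs were summed over the cells of a group and given as counts per 1000000 (CPM), with exact Poisson intervals, and shares of cells have exact Clopper-Pearson intervals (scipy 1.17.1, numpy 2.4.6, Python 3.11.15). Genes needed a UMI in at least 10 of all barcodes (20394 genes) and 10 CPM in either group. Log2 ratios had 10 CPM added to both levels, folds in the text are ratios of the levels without it, and a gene was counted as higher or lower at 2-fold. For shares of cells, each cell was thinned without replacement to 4000 UMIs. No cell was too shallow for this. No test was made.

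Named genes were those of the lists, the 10 with the largest ratio each way between D8 CMs and other D8 cells and between D8 CMs of 2% and over and under 1%, and the 5 each way between D14 and D8, at 100 CPM or more in either group and without the 10 genes of the rule. UHRF1, a listed replication gene, was not analysed here, and the values of some listed genes are not reported here. Doublets were kept. Scrublet (scanpy 1.11.5) called 1 of the 2657 kept D8 cells, too few to be taken as the doublets present. In its highest 5% of scores lay 3.13% of D8 CMs and 5.05% of other D8 cells. Poisson counts were simulated for D8 CMs against other D8 cells, with 200 of 8125 genes changed. In them 95.3% of ratio intervals held the true ratio. Of changed genes 77.5% and of unchanged genes 0% were counted as past 2-fold. These draws had no spread between cells, so they check the calculation and not how well the intervals hold in these data. Promoter windows came from RefSeq (GRCh38.p14), and no coordinate was taken from hg19.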

Additional observations from a re-analysis of the deposited data

Results flagged for a closer look

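For 4 named genes the difference between CMs and the other kept cells of the same day went one way at D8 and the opposite way at D21, by 2-fold or more each time. The difference between the days was not tested, as each day is 1 library. SLN was higher in D8 CMs (214 against 20.6 CPM, log2 ratio 2.87) and lower in D21 CMs (5.11 against 40.3 CPM, -1.74). COL1A2, a chain of type I collagen, was higher in D8 CMs (319 against 105 CPM, 1.51) and lower in D21 CMs (108 against 452 CPM, -1.97). CCDC80 was higher in D8 CMs (46.1 against 16.2 CPM, 1.10), just past 2-fold, and lower in D21 CMs (68.7 against 259 CPM, -1.77). It was read in 85 D8 CMs, and 1 cell held 13.6% of its UMIs there. MT1X was lower in D8 CMs (86.1 against 409 CPM, -2.12), where 1 cell held 44.0% of its UMIs, and higher in D21 CMs (25.1 against 1.74 CPM, 1.58).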

How the results depend on the processing

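The number of D8 CMs followed the limit of the rule. It was 525 (19.8%) with a limit of 0.25%, 139 (5.23%) with 1% and 182 (6.85%) without TTN, against 319. With other cycling, mitochondrial and gene limits, after thinning and without the highest doublet scores it lay from 248 to 359. The numbers of genes past 2-fold depended on the added value. With 1 CPM in place of 10, 492 genes were higher and 469 lower in D8 CMs, against 292 and 244, and at D14 861 and 163, against 427 and 70, and at D21 967 and 994, against 587 and 515. Against other D8 cells under the cycling limit only, 144 genes were lower. In that setting AURKA turned, with a log2 ratio of 0.195, and 107 of the 136 named genes past 2-fold stayed past it. In the other 10 settings all 136 kept their direction and 122 to 136 stayed past 2-fold. These included a choice of cells on 1 of 2 random parts of the UMIs and levels from the other part (321 cells, 308 of them D8 CMs), where TNNT2 was at 2511 against 127 CPM. TNNT2 is a gene of the rule and both parts come from the same cells, so its level there describes the choice. Without the filter on low genes the counts were equal, since 10 CPM added to levels under 10 CPM cannot give 2-fold. The settings without shared barcodes, without epithelial D8 CMs, against cells under 0.25%, and those for D14 and D21 were added after seeing the data. No paired analysis was possible because each day has 1 library. Genes under about 1 CPM in D8 CMs rest on few UMIs, as 3 counts equal 0.589 CPM.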

Other observations

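Groups not described above for the later days were read by the same measure. Of 12 BMP pathway genes at 10 CPM, 5 were 2-fold or more higher in D14 than in D8 CMs and 0 lower, while at D21 2 were higher and 2 lower (median log2 ratio 0.09), and ID1 stood at 224, 763 and 232 CPM on the 3 days in turn. Of 6 small heat shock proteins at 10 CPM, 4 were 2-fold or more higher at D14 and 6 at D21, as for CRYAB with 20.2, 126 and 309 CPM at D8, D14 and D21. Of 11 progenitor and second heart field genes at 10 CPM at D21 or D8, 3 were higher at D21 and 5 lower, with ISL1 at 53.8, 67.1 and 6.11 CPM. The comparisons share the D8 CMs, and each day is 1 library.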
